A study of Mus musculus with 9 samples.

Results

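The calcium and calmodulin signalling genes described here were Camk2a, Camk2b, Camk2d, Camk2g, Camk4, Nrgn, Calm2, Calm3 and Ppp3ca. They were chosen for their roles, with earlier results of these data known, and looked up by symbol in each deposited table. All 9 of the 9 were found among 51912 genes per library, and all passed the minimum of 1 CPM (a count scaled to a common library total) that 14787 genes met. Camk2a, Camk2b and Nrgn were lowest in the same 3 of 9 libraries. Nrgn spanned the widest range, 7.29-fold from its lowest to its highest library, and Camk4 the narrowest, 1.59-fold.

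Calcium that enters a neuron through NMDA receptors or voltage-gated channels binds calmodulin, and calcium-loaded calmodulin then switches on kinases and a phosphatase that act against each other at the synapse. CaMKII is the kinase, a large holoenzyme assembled from alpha, beta, delta and gamma subunits, and in forebrain excitatory neurons it is a main component of the postsynaptic density and is required for long-term potentiation. Calcineurin is the phosphatase, is known for its part in long-term depression, and also activates the NFAT transcription factors. Neurogranin, the product of Nrgn, holds calmodulin near the membrane of dendritic spines when calcium is low, and CaMKIV, the product of Camk4, carries the calcium signal to the transcription factor CREB in the nucleus.

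RNA came from fluorescence-sorted hippocampal pyramidal neurons of male C57BL/6 mice in which Cre recombinase is under control of the Camk2a promoter. The red fluorescent protein mCherry, in a form that only Cre can switch on, was delivered by injection of rAAV5, an adeno-associated viral vector, at 2.88e+08, 2.88e+09 or 2.88e+10 vector genomes, the smallest amount serving as control, and hippocampi were taken 3 weeks later. The labels state neither the age of the mice nor whether animals were pooled. All libraries share the Camk2a-driven Cre and the vector, so none is from untreated tissue, and Camk2a is the gene whose promoter defines the cells in which mCherry can be switched on. The series text names 3 groups of 3 biological replicates, but the label of each library is a serial title, S1001 to S1009, with no dose. Each deposited table does carry a letter: H for S1001 to S1003, M for S1004 to S1006 and L for S1007 to S1009. What the letters stand for is not stated, so values are laid side by side by letter as a description, no library is given a dose, and no test between letters was made. Throughout, 2 letters are called apart for a gene when the ranges of their 3 and 3 libraries do not overlap.

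Total counts ran from 12136830 to 19151596 per library, and the 9 genes had between 400 counts (Camk2d) and 188088 counts (Calm2), and within the H libraries Camk4 and Camk2d varied about as much as counting alone gives (chi-square per degree of freedom of 0.35 and 1.27). The other genes varied more there, from 3.47 for Camk2a to 167.8 for Ppp3ca, 173.9 for Calm2 and 426.9 for Nrgn. The H libraries were closer to one another than the others were: the median gene above 10 CPM differed 1.12-fold between the highest and lowest H library, against 1.31-fold in M and 1.34-fold in L. Chi-square per degree of freedom between 2 libraries was 2.67 to 5.14 within H, above the value of pure counting error, and 24.26 to 33.58 within M and 27.21 to 38.86 within L. Pan-neuronal markers (15 of 15 at 1 CPM) summed to 10114.7 to 10247.1 CPM in H, 12631.7 to 14400.6 CPM in M and 13804.8 to 15958.1 CPM in L. Excitatory neuron markers (11 of 11) summed to 3346.7 to 3568.2, 2720.8 to 3048.5 and 3569.1 to 4216.5 CPM in the same order, with no marker at 0. That sum was thus lowest in M. Of the list, Slc17a7 (366.4 to 411.2, 184.2 to 319.4 and 579.3 to 586.0 CPM), Neurod6 and Nptx1 lay below both other letters in M. Tbr1 lay above both in M, and the rest did neither. Microglial markers (13 of 13) summed to 17382.1 to 18816.7 CPM in H, 5026.5 to 6375.4 CPM in M and 27.7 to 152.7 CPM in L. Inhibitory neuron markers (12 of 12) summed to 321.5 to 362.2, 781.8 to 1690.5 and 618.5 to 2321.3 CPM, with Pvalb at 0 in at least 1 L library. Oligodendrocyte markers (11 of 11) summed to 636.2 to 658.6, 97.4 to 161.8 and 33.4 to 61.3 CPM, with Opalin at 0 in at least 1 L library, and B and plasma cell markers (5 of 5) to 3231.4 to 3358.2, 3.92 to 6.21 and 0.863 to 1.28 CPM, with Mzb1 at 0 in every M library and Cd79b at 0 in every L library. In bulk RNA of this kind, fewer cells of a type and less RNA per cell cannot be told apart. Astrocyte markers (10 of 10) summed to 243.1 to 253.8, 246.8 to 430.8 and 118.8 to 250.4 CPM. Endothelial markers, 0 of 5 of which reached 1 CPM, summed to at most 3.23 CPM. Dentate granule cell markers (7 of 7) summed to 280.9 to 321.5, 370.9 to 405.3 and 307.0 to 493.0 CPM. Most of that sum was Calb1, at 214.1 to 254.1, 306.0 to 353.3 and 293.2 to 405.0 CPM. Dock10 and Dsp of the same list were instead higher in H than in M, and the rest overlapped between H and M. The part of these other cell types in the levels of the 9 genes was not tested, apart from the rescaling on neuronal genes given below.

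**Figure D1:**
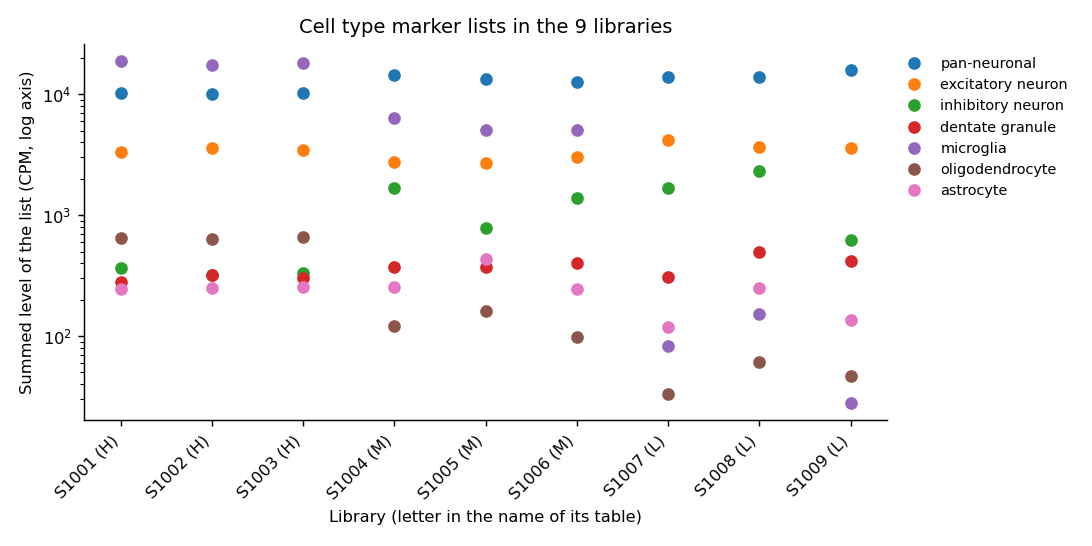
Summed CPM (log axis) of 7 cell type marker lists in each of the 9 libraries, 1 point per list and library. Microglial markers run from 17382.1 CPM or more in the H libraries to 152.7 CPM or less in the L libraries. The excitatory neuron sum lies between 2720.8 and 4216.5 CPM and is lowest in the M libraries.

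Across the 9 genes, H and L were apart for 4, all lower in H: Camk4, Nrgn, Calm2 and Calm3. Of all genes at 1 CPM, 26.2% were apart with H lower and 24.7% with H higher. The count of 4 of 9 is near the 50.9% apart in either direction, although all 4 were lower in H. M and L were apart for 5: Camk2a, Camk2b, Nrgn and Calm3 were lower in M, against 15.5% of all genes, and Camk4 was higher in M, against 17%. H and M were apart for 7, with Camk2a, Camk2b, Nrgn and Ppp3ca higher in H (23% of all genes) and Camk2d, Camk2g and Camk4 lower in H (21.3%). Camk2a, Camk2b and Nrgn lay below both other letters in M, as did 6.05% of all genes, and Camk4 lay above both in M, as did 4.72%. In Camk4 and Nrgn all 3 letters were apart, as in 12.9% of all genes, and the order of Nrgn (L above H above M) was that of 2.07%. The median difference over the 9 genes, on the log2(CPM + 1) scale, was -0.13 for H minus L, -0.39 for M minus L and -0.058 for H minus M, and over all genes at 1 CPM it was -0.035, 0.003 and 0.004.

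**Figure D2:**
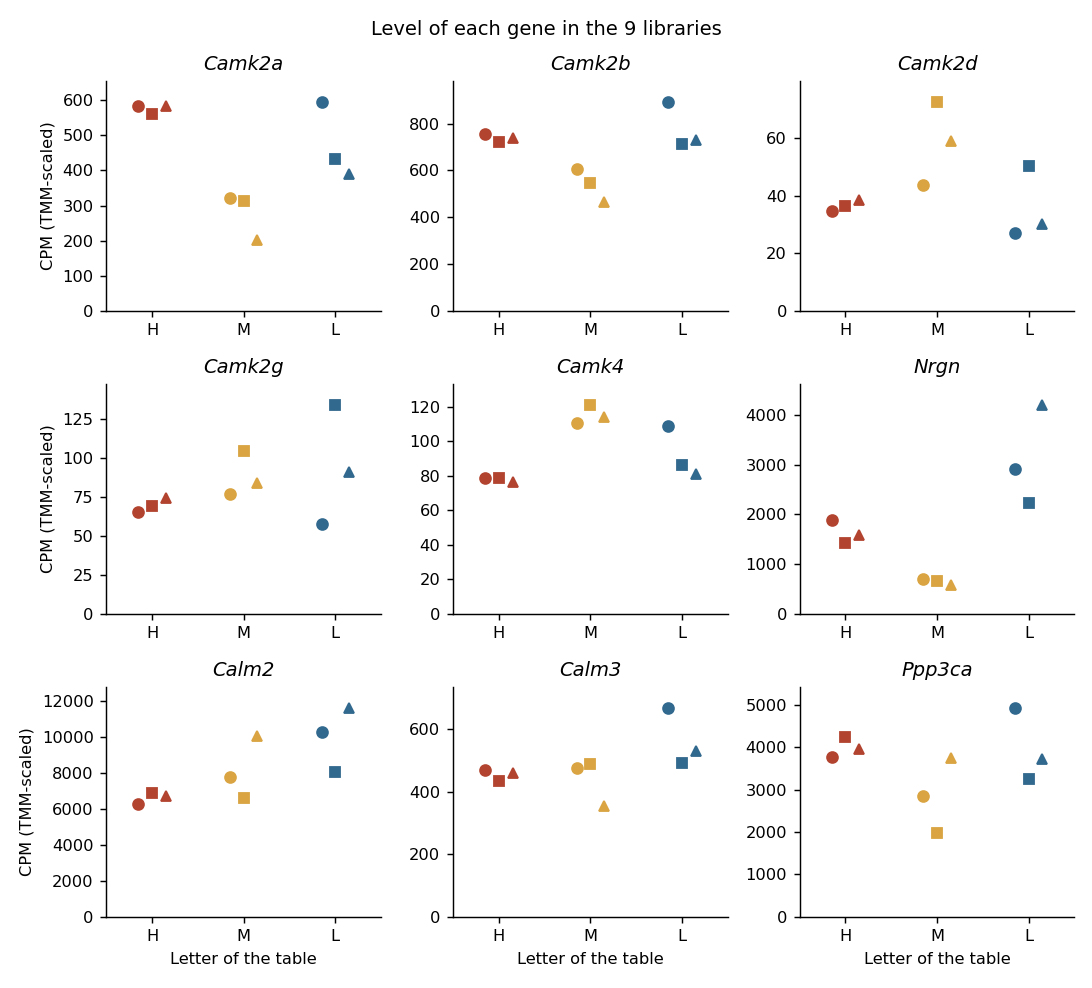
CPM of each of the 9 genes by the letter of the table, 1 point per library, with axes starting at 0 and a different symbol for each library of a letter. Camk2a, Camk2b and Nrgn sit lowest in M. The H points lie closest together except for Nrgn, where the M points do.

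Camk2a encodes the alpha subunit of CaMKII, the major subunit in forebrain excitatory neurons (ENSMUSG00000024617, build mm10, chromosome 18, 60925618 to 60988152, plus strand). Its level was 584.0, 562.5 and 584.1 CPM in the H libraries, 320.3, 312.4 and 202.5 CPM in M, and 595.7, 431.6 and 389.4 CPM in L. All M libraries were below all others, and H and L overlapped because S1007 reached the H level while S1008 and S1009 did not. The nearest H and M libraries differed 1.76-fold and the nearest L and M libraries 1.22-fold. Without S1007, Camk2a was also higher in H than in L. Camk2b encodes the beta subunit, which binds filamentous actin (ENSMUSG00000057897, chromosome 11, 5969644 to 6066362, minus strand). It measured 756.9, 719.8 and 739.8 CPM in H, 605.0, 547.1 and 463.7 CPM in M, and 892.8, 713.7 and 731.6 CPM in L. M was again below every other library, by 1.19-fold from the nearest H and 1.18-fold from the nearest L library, which is less than the 1.3-fold between the highest and lowest M library. H and L had nearly the same median for Camk2b, with a difference of 0.016 on the log2 scale.

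Camk2d and Camk2g, which encode the delta and gamma subunits and are found in many tissues, did not share this pattern. Camk2d (ENSMUSG00000053819, chromosome 3, 126596302 to 126846326, plus strand) was at 34.8, 36.6 and 38.7 CPM in H, 43.7, 72.7 and 59.0 CPM in M, and 26.9, 50.3 and 30.3 CPM in L. Camk2g (ENSMUSG00000021820, chromosome 14, 20734875 to 20794088, minus strand) was at 65.2, 69.4 and 74.6 CPM in H, 77.2, 104.3 and 83.7 CPM in M, and 57.5, 134.2 and 91.2 CPM in L. Both were lower in H than in M, by 1.13-fold and 1.03-fold between the nearest libraries, and both overlapped between M and L. The L libraries were spread for both genes, up to 2.33-fold for Camk2g, with S1008 highest.

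Camk4, the nuclear kinase, had its highest levels in M (ENSMUSG00000038128, chromosome 18, 32934931 to 33191228, plus strand). The values were 78.6, 78.7 and 76.2 CPM in H, 110.7, 121.0 and 114.0 CPM in M, and 108.9, 86.2 and 80.9 CPM in L. H and M were clearly separated, with 1.41-fold between the nearest libraries, but the gaps from L to M (1.02-fold) and from H to L (1.03-fold) were narrow, and H and L overlapped under 3 of 5 scalings. Camk4 is also expressed by T cells, whose markers (4 of 6 at 1 CPM) summed to 27.6 to 31.7 CPM in H, 14.2 to 24.1 CPM in M and 0 to 0.487 CPM in L. In M the sum was almost all Cd4, at 13.6 to 23.9 CPM, while Cd3e and Cd3d were at 0 in all 3 libraries and Cd3g and Cd8a at no more than 0.0727 CPM. In L, Cd3e, Cd3d, Cd3g, Cd4 and Cd8a were at 0 in all 3 libraries. Exons of Camk4 overlap those of the antisense gene 2310026I22Rik, which reached at most 0.863 CPM, and whether the counting used strand is not stated.

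Nrgn showed the largest differences of the 9 genes. This abundant postsynaptic protein (ENSMUSG00000053310, chromosome 9, 37544492 to 37552904, minus strand) measured 1894.4, 1431.3 and 1585.6 CPM in H, 691.5, 653.3 and 576.2 CPM in M, and 2909.9, 2230.1 and 4202.9 CPM in L. No 2 letters overlapped. Nrgn was 3.22-fold lower in M than in L and 2.07-fold lower in M than in H between the nearest libraries, and 1.18-fold lower in H than in L. It was the only one of the 9 genes separated by 2-fold or more between nearest libraries, and this held for M against both other letters. Between medians, M minus L was -2.15 and H minus L -0.88 on the log2 scale.

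Promoter sequence could be placed beside these levels for 4 of the 9 genes, from RefSeq on GRCm38.p6, each running from 250 bases before to 50 after the annotated start. Nrgn and Camk2b are shown because both were lowest in M, and Camk2d because it was not. The 3 sequences are given 5′ to 3′ on the strand of the gene, with GC boxes (GGGCGG on either strand) in capitals. Nrgn lies at chr9:37552696-37552995 (minus strand), Camk2b at chr11:6065699-6065998 (minus strand) and Camk2d at chr3:126596701-126597000 (plus strand). The Camk2b and Camk2d windows lie wholly inside the gene spans given above, so bases before their starts are not upstream of those spans. The Nrgn window runs past the end of its span at 37552904, but its GC box and the bases next to its start lie inside that span.
Nrgn: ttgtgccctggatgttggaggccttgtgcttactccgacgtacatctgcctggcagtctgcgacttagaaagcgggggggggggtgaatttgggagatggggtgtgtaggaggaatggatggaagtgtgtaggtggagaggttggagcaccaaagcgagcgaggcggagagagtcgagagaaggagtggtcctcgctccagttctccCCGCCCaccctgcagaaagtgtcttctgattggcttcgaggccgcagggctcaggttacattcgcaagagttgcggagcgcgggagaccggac
Camk2b: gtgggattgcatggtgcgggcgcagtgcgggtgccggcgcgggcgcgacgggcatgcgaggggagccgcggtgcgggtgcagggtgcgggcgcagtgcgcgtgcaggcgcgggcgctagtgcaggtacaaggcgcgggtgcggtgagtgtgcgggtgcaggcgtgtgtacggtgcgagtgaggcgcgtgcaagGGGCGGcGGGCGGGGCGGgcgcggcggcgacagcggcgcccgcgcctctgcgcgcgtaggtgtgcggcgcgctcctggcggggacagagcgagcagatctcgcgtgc
Camk2d: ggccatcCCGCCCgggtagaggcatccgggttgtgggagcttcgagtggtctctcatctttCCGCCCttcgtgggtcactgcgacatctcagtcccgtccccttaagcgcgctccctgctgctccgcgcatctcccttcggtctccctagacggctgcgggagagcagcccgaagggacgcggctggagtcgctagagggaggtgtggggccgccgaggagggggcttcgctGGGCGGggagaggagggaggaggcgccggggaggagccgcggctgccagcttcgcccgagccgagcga
The Nrgn window was 59.3% G and C and held 1 GC box, starting 43 bases before the start (-43). Camk2b was richer, at 77.3%, with GC boxes starting at -57, -50 and -45, the last pair sharing a base. Camk2d was 70.3% G and C, with GC boxes starting at -243, -189 and -18. The median of 32851 RefSeq promoters was 52.7% G and C, with quartiles of 45.7% and 61.7%, and 35.7% of them held a GC box. None of the 3 windows held a cAMP response element (TGACGTCA, 1.79% of promoters), its shorter form (TGACG, 20.8%) or a TATA box (TATAAA, 13.6%), all searched on both strands. The shorter form is contained in the full element. The promoter of Calm3, not shown, held the shorter form at -59 and a GC box at -3. These matches describe letters in a window. The GC box was found in Nrgn and Camk2b, which were lowest in M, and in Camk2d, which was not. Camk2a, also lowest in M, had no promoter sequence to search.

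Calm2 and Calm3 both encode calmodulin, and their protein products are the same. Calm2 (ENSMUSG00000036438, chromosome 17, 87433412 to 87446935, minus strand) was at 6260.4, 6848.0 and 6682.8 CPM in H, 7789.9, 6581.4 and 10034.0 CPM in M, and 10260.0, 8054.8 and 11592.1 CPM in L. H was below L, by 1.18-fold between the nearest libraries, and M overlapped both. Calm3 (ENSMUSG00000019370, chromosome 7, 16915379 to 16924114, minus strand) was at 471.0, 433.1 and 458.7 CPM in H, 477.5, 488.3 and 354.9 CPM in M, and 667.8, 493.1 and 532.0 CPM in L. L was above both other letters, but by only 1.05-fold from H and 1.01-fold from M. Calm3 overlapped between M and L with library totals, DESeq2 size factors and excitatory scaling, and between H and L with excitatory and pan-neuronal scaling. The treatment of reads that match more than 1 gene is not stated, and the division of counts between Calm2 and Calm3 is uncertain to that extent.

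Ppp3ca encodes the alpha isoform of the catalytic A subunit of calcineurin (ENSMUSG00000028161, chromosome 3, 136670124 to 136937727, plus strand). It measured 3779.1, 4235.9 and 3959.1 CPM in H, 2845.7, 1977.5 and 3745.6 CPM in M, and 4925.2, 3251.6 and 3721.7 CPM in L. M spanned 1.89-fold, and the gap of 1.01-fold between it and H lay between S1006 and S1001. That separation was lost with library totals and with excitatory scaling. The L range contained the whole H range, and it overlapped with M. The other catalytic genes gave 188.7 to 267.7 CPM over all libraries for Ppp3cb, with no letters apart, and 28.9 to 31.6 CPM in H, 13.0 to 31.4 CPM in M and 34.7 to 39.3 CPM in L for Ppp3cc, which was highest in L. Ppp3r1, the regulatory B subunit that pairs with the catalytic chain, was at 2019.8 to 2378.6 CPM in H, 1259.3 to 1780.7 CPM in M and 1721.7 to 2911.5 CPM in L, and like Ppp3ca was higher in H than in M.

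To order levels between genes, the deposited FPKM (fragments scaled to gene length and library total) were used, with medians over the 9 libraries. Of the 11 genes compared, Calm2 came first in every library, with a median of 5267.7 FPKM, and Nrgn (1092.1) was always next. Ppp3ca (380.7) and Calm3 (195.5) exchanged places 3 and 4, and Camk2b (78.8) kept place 5. Camk2a (58.2), Ppp3cb (37.2), Camk2g (20.7), Ppp3cc (16.2) and Camk4 (7.05) filled places 6 to 10 with neighbours changing order between libraries, and Camk2d (1.72) was last in each. Among all genes of the tables, Calm2 ranked between 1 and 4 by FPKM, Nrgn between 4 and 106, and Camk2d between 8688 and 11617. The place of Camk2d depends on a gene length of 22.5 kb implied by its FPKM, against 5.52 kb for its principal transcript, and Camk4 was divided by 12.3 kb against 2.72 kb. For Camk2g the implied length was that of its principal transcript, 3.70 kb, rather than the 6.40 kb of all its exons, whereas for the other CaMKII genes it was that of all exons.

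The composition of the CaMKII and calcineurin A families does not depend on how libraries are scaled, although it does depend on the gene lengths used. Camk2a made up 43.38%, 43.16% and 43.19% of the summed CaMKII FPKM in H, 32.5%, 31.41% and 26.29% in M, and 41.06%, 33.13% and 32.95% in L. No letters overlapped, although S1009 of L (32.95%) was close to S1004 of M (32.5%). Camk2b held 44.75% to 50.64%, with all letters overlapping by FPKM. From counts not divided by length, the Camk2b share was lower in H (51.5% to 52.5%) than in M (52.8% to 57.8%) and L (53.7% to 58.9%), and by principal transcript length lower in H than in L. Camk2d had a larger share in M than in both other letters, and Camk2g a larger share in M than in H, with M and L overlapping. Camk2g held 9.76% to 11.1% in H, 15.8% to 21.9% in M and 7.99% to 20.8% in L, and Camk2d 0.861% to 0.949%, 1.47% to 2.54% and 0.617% to 1.28%. The median share of Camk2g, 15.6% by FPKM, was 7.34% from counts and 8.49% by principal transcript length. Per length, Camk2a was 0.943 to 0.965 times Camk2b in H, 0.534 to 0.698 times in M and 0.651 to 0.816 times in L. Calm2 was 21.9 to 26.1 times Calm3 per length in H, 22.3 to 46.7 times in M and 25.4 to 36.0 times in L. Ppp3ca held 83.54% to 90.02% of the calcineurin A family, Ppp3cb 6.72% to 13.2% and Ppp3cc 2.06% to 5.34%. The Nrgn to Calm2 ratio of FPKM, a pair chosen after its values were seen, was 0.211 to 0.305 in H, 0.058 to 0.100 in M and 0.279 to 0.366 in L.

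**Figure D3:**
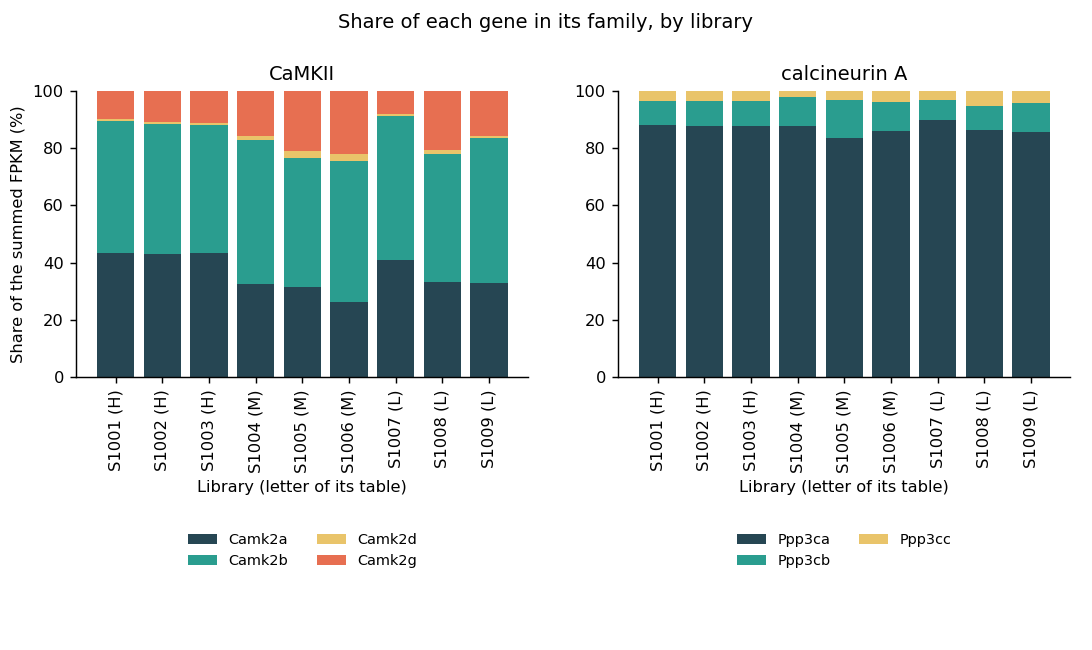
Share of each gene in the summed FPKM of its family (%), 1 stacked bar per library, for CaMKII and calcineurin A. The Camk2a share is 43.16% to 43.38% in the H libraries and 26.29% to 32.5% in M, while Ppp3ca holds 83.54% or more of its family in all 9 libraries.

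Libraries that differ in their content of other cells can be rescaled on neuronal genes alone. Scaling on the pan-neuronal list moved the median of all genes by 0.43 (H minus L) and 0.42 (H minus M) on the log2 scale, and scaling on the excitatory neuron list moved it by 0.12 (M minus L). Camk2a, Camk2b and Nrgn remained below both other letters in M in 5 of 5 scalings, namely TMM, library totals, DESeq2 size factors, the pan-neuronal list and the excitatory list. With the excitatory list, however, the nearest L and M libraries differed only 1.05-fold for Camk2a and 1.06-fold for Camk2b, against 2.78-fold for Nrgn. Relative to pan-neuronal genes, Camk2a, Camk2b and Ppp3ca were higher in H than in L and none of the 9 was lower, and the H minus L differences of Camk2g, Camk4 and Calm3 turned positive, at 0.18, 0.19 and 0.25. Relative to the same genes, H exceeded M for 5 genes (Camk2a, Camk2b, Nrgn, Calm3 and Ppp3ca), and Camk2d, Camk2g and Camk4 were no longer apart. In that scaling 56.3% of all genes at 1 CPM were apart between H and L, and 53.3% between H and M, in either direction. Nrgn and Calm2 were then no longer apart between H and L. The excess of Camk4 in M over L was lost with the excitatory scaling. As single references, also chosen after their values were seen, Slc17a7 and Gria2 left M and L overlapping for Camk2a, and Snap25 did not. The lowest ratios of Camk2a to Slc17a7 were in L rather than in M. Camk2a over Slc17a7, the vesicular glutamate transporter, was 1.03 to 1.11 in H, 0.706 to 0.942 in M and 0.486 to 0.742 in L, and Camk2a over Gria2, an AMPA receptor subunit, 0.676 to 0.793, 0.260 to 0.532 and 0.481 to 0.631. Camk2a over Snap25, a synaptic fusion protein of all neurons, was 0.165 to 0.188 in H, 0.0435 to 0.0721 in M and 0.0782 to 0.124 in L, with M lowest. H was above both other letters in each of these ratios.

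**Figure D4:**
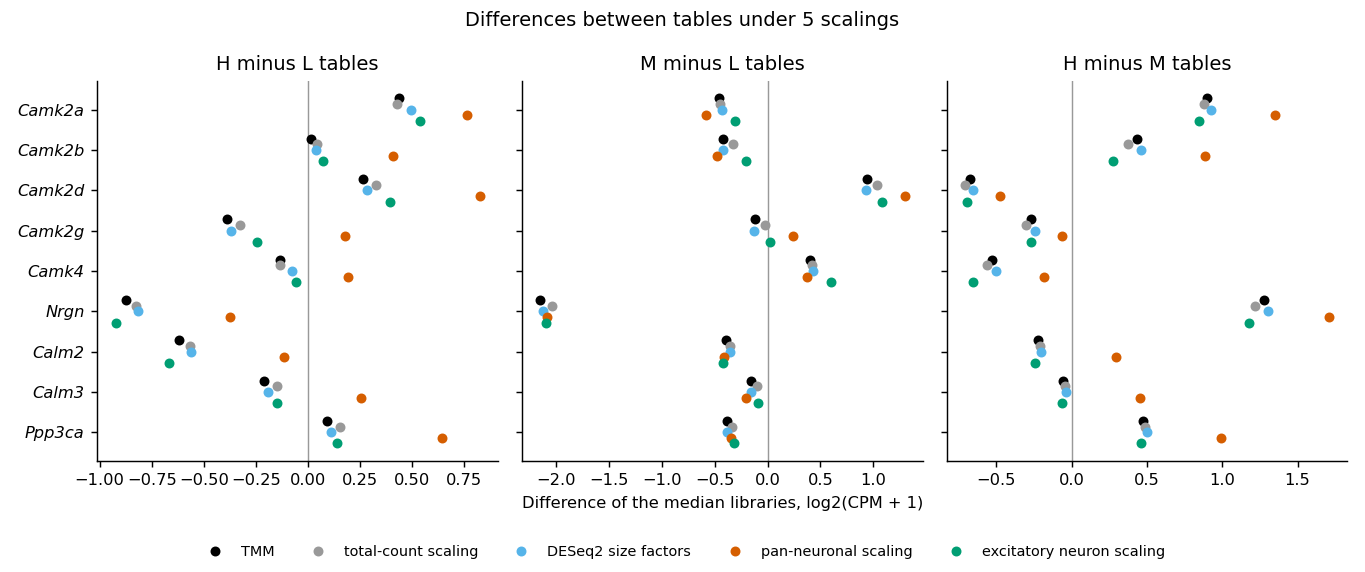
Difference between the median libraries of 2 letters on the log2(CPM + 1) scale for the 9 genes, 1 point per scaling. Pan-neuronal scaling (orange) lies to the right of the others in H minus L and in H minus M, and Nrgn in M minus L stays between -2.15 and -2.04.

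Of 81 further genes of calcium and calmodulin signalling in 7 lists, 76 were at 1 CPM. H was apart from L for 41 of them, 17 higher and 24 lower, M from L for 30, 12 higher and 18 lower, and H from M for 43, 23 higher and 20 lower. Of all genes at 1 CPM, 50.9%, 32.5% and 44.2% were apart in these pairs. The count for H against L was near that background, and those for M against L and H against M were somewhat above it. The counts of single lists below are to be read against the same background, which was 24.7% higher and 26.2% lower for H against L, 17% and 15.5% for M against L, and 23% and 21.3% for H against M. M lay below both other letters for 12 of the 76 (15.8%, against 6.05% of all genes) and above both for 4 (5.26%, against 4.72%). The 12 were Camk1d, Camkk1, Camkk2, Dapk1, Basp1, Adcy8, Grin1, Gria1, Kalrn, Crtc1, Hpca and Cabp1, and the 4 were Camk1, Pcp4l1, Myo5a and Hpcal1. Some gaps among the 12 were narrow, at 1.001-fold for Adcy8, 1.01-fold for Kalrn and 1.02-fold for Camk1d between the nearest M and L libraries. Between the nearest H and M libraries the gap was 1.003-fold for Camkk2 and 1.01-fold for Crtc1. The lists were counted in the main scaling only. All lists were chosen with earlier results of these data known, and no test of them was made.

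Among 11 other CaM kinases and CaMKII inhibitors, 1 was higher and 6 lower in H than in L (24.7% and 26.2% of all genes), 1 higher and 5 lower in M than in L, and 4 higher and 2 lower in H than in M. Camkk1 and Camkk2, the kinases that activate CaMKIV and CaMKI, were at 72.4 to 90.6 and 58.7 to 72.6 CPM in M, against 115.8 to 127.1 and 72.8 to 81.2 CPM in H and 172.5 to 247.3 and 95.3 to 161.9 CPM in L. Both had the order of Nrgn, with M lowest, where Camk4 had M highest. For Camkk2 the nearest H and M libraries differed by only 1.003-fold. Camkv, a kinase-like protein without kinase activity, was highest in L, at 829.9 to 971.2 CPM against 406.2 to 438.7 CPM in H and 282.0 to 522.7 CPM in M. Pnck was lowest in H, at 69.0 to 73.0 CPM, and the doublecortin-like kinase gene Dclk1 overlapped throughout, at 350.0 to 552.7 CPM.

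Of 10 other genes for calmodulin-like proteins and calmodulin-binding buffers, 7 were at 1 CPM. H was higher for 1 and lower for 3 against L, M was higher for 2 and lower for 1 against L, and H was higher for 2 and lower for 4 against M. Basp1, a membrane protein that like neurogranin binds calmodulin, resembled Nrgn, with 387.6 to 453.6 CPM in H, 126.1 to 162.1 CPM in M and 849.9 to 1163.7 CPM in L. Gap43, the presynaptic relative of Nrgn with a shared calmodulin-binding motif, did not: it was at 348.4 to 398.3 CPM in H, 834.2 to 1011.0 CPM in M and 585.3 to 1054.5 CPM in L. Pcp4l1 was highest in M, at 51.03 to 114.1 CPM, against 15.1 to 17.3 CPM in H and 35.3 to 43.7 CPM in L.

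Of 15 calcineurin subunit, regulator and NFAT genes, 13 were at 1 CPM, and H was higher for 4 and lower for 1 against L, M higher for 2 and lower for 1 against L, and H higher for 3 and lower for 2 against M. Rcan2, an inhibitor of calcineurin, was higher in M than in H, at 50.7 to 105.4 against 20.3 to 23.8 CPM, with 23.1 to 72.3 CPM in L. Rcan3 was also higher in M than in H. Rcan1 of the same list was instead highest in H, at 120.2 to 127.6 CPM, against 66.43 to 85.16 CPM in M and 71.33 to 96.55 CPM in L. In the CREB branch, 4 of 8 genes were higher and 0 lower in H than in L (24.7% and 26.2% of all genes), 3 higher and 1 lower in M than in L, and 5 higher and 1 lower in H than in M. Atf1, a CREB relative, was at 14.5 to 15.7 CPM in H, 10.8 to 13.1 CPM in M and 2.16 to 4.91 CPM in L. Crtc1, a calcineurin-dependent coactivator of CREB, was lowest in M, at 30.2 to 56.3 CPM against 57.0 to 70.5 CPM in H and 59.1 to 72.3 CPM in L. Crebbp was higher in M (138.3 to 183.7 CPM) than in H (102.0 to 117.8 CPM), and Crtc2 was lower in M (7.26 to 14.5 CPM) than in H (15.6 to 19.4 CPM).

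Of 13 CaMKII partners and substrates at the synapse, 3 were higher and 4 lower in H than in L (24.7% and 26.2% of all genes), 0 higher and 4 lower in M than in L, and 5 higher and 0 lower in H than in M. Gria1, the AMPA receptor subunit that CaMKII phosphorylates, followed Nrgn in order, with 870.9 to 885.2 CPM in H, 639.8 to 731.5 CPM in M and 953.8 to 1137.1 CPM in L. Grin2b, the NMDA receptor subunit that docks CaMKII, overlapped in each pair, at 501.9 to 702.7 CPM over all libraries. Syn1, a synaptic vesicle phosphoprotein, was highest in L, at 602.5 to 657.0 CPM, against 348.5 to 362.3 CPM in H and 272.5 to 509.7 CPM in M, and the Rac activator Tiam1 overlapped throughout, at 7.00 to 18.1 CPM.

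Of 13 other calmodulin effectors, 3 were higher and 4 lower in H than in L, 2 and 2 in M against L, and 2 and 5 in H against M. The calcium pump gene Atp2b1 overlapped throughout, at 1920.6 to 4382.4 CPM, Atp2b4 was higher in H (30.6 to 34.9 CPM) than in L (12.4 to 25.9 CPM), and the phosphodiesterase gene Pde1a was lowest in H, at 281.3 to 317.2 CPM. Nos1, neuronal nitric oxide synthase, was lower in H (27.8 to 28.7 CPM) than in M (31.6 to 52.5 CPM). Of 11 other calcium sensors and buffers, 1 was higher and 6 lower in H than in L, 2 and 4 in M against L, and 2 and 6 in H against M. Hpca, the hippocampal sensor hippocalcin, had the order of Nrgn, at 2028.9 to 2156.6 CPM in H, 945.6 to 1516.6 CPM in M and 2437.2 to 4168.7 CPM in L, and so did Cabp1, at 27.6 to 34.3, 7.49 to 9.93 and 42.5 to 48.4 CPM. Hpcal4 was lowest in H, at 394.2 to 408.2 CPM, and Hpcal1 highest in M, at 21.1 to 35.1 CPM.

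**Figure D5:**
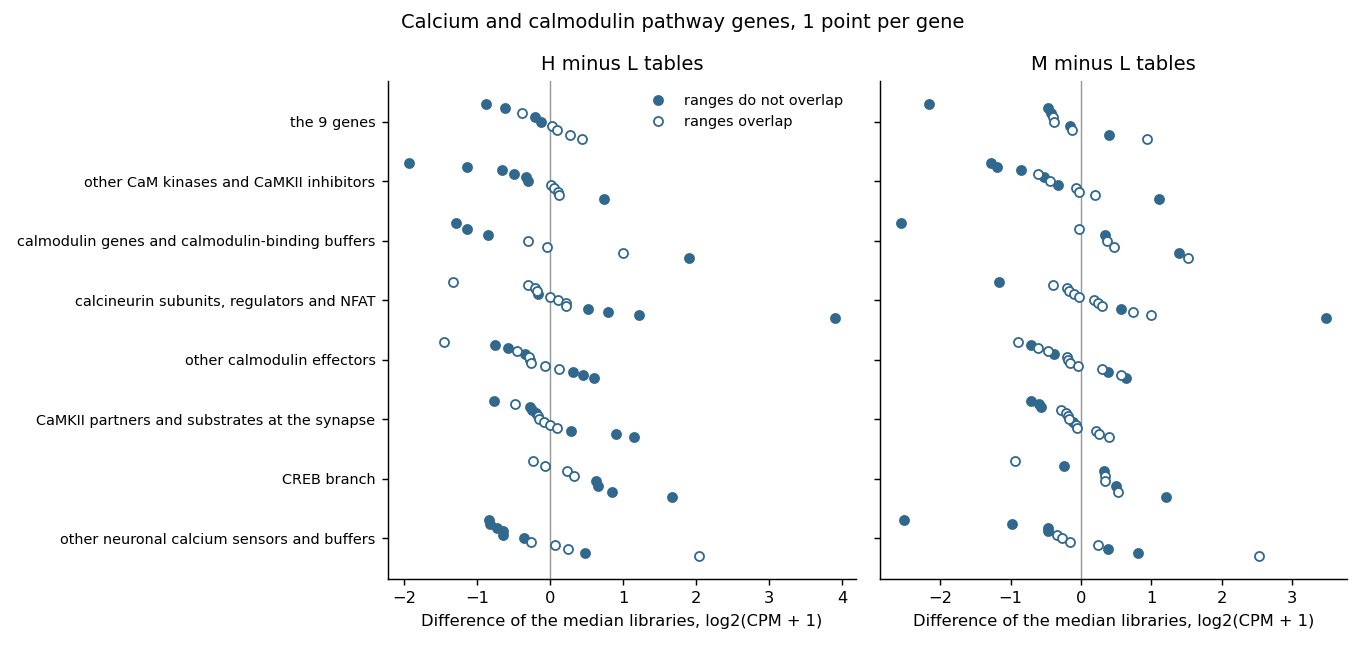
Difference between median libraries on the log2(CPM + 1) scale, H minus L and M minus L, 1 point per gene for the 9 genes and 7 pathway lists, filled where the ranges of the 3 and 3 libraries do not overlap. In M minus L, Nrgn (-2.15) lies among the lowest points, and each list holds genes on both sides of 0.

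Genes with the most similar course over the 9 libraries were found by the root mean square difference of centred log2(CPM + 1) values, among genes averaging 10 CPM or more. For Camk2a they were Scarb1 and Numbl (0.172 each), St3gal3 (0.181), Dagla (0.186) and Sbk1 (0.203). Dagla encodes the synaptic lipase that makes the endocannabinoid 2-AG. For Nrgn they were Pou3f1 (0.201), Vstm2l (0.232), Ybx3 (0.261), Basp1 (0.274) and Bod1 (0.274). Pou3f1 is a transcription factor gene used as a CA1 marker, and the CA1 list to which it belongs (5 of 5 at 1 CPM) summed to 882.7 to 928.8 CPM in H, 732.7 to 920.2 CPM in M and 1395.2 to 1807.1 CPM in L. The nearest single genes were Max for Camk2b (0.076), Tbr1 for Camk2d (0.132), Slc19a1 for Camk2g (0.126), Kif3b for Camk4 (0.090), Gm45871 for Calm2 (0.083), Nop2 for Calm3 (0.053) and Nrip1 for Ppp3ca (0.068). A gene that varies little lies close to many others by this measure, so values are not comparable between genes of different spread, such as Calm3 and Nrgn.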

How the data were processed

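Total RNA of 9 libraries was sequenced. Per the submitters' processing notes, the aligner HISAT2 2.0.1, the counter HTSeq 0.6.1, Trimmomatic 0.30, bcl2fastq 2.17.1.14 and the build mm10 were used. Annotation release, strand setting and parameters were not given in the sources used here. The deposited tables hold, per the file headers, a raw read count and an FPKM for each of 51912 Ensembl genes per library, of which 51719 (99.63%) matched GENCODE M21 for symbols and coordinates.

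CPM were obtained from the counts using TMM normalisation (edgeR 4.0.16, R 4.3.3), with a pseudocount of 1 CPM for log2 values. The deposited FPKM served only for order and shares between genes. Libraries had no label of group, 0 of 9, so no test was made. The series text calls the libraries biological replicates, and the spread between those of 1 letter may still be technical in part. Alternatives were library totals, DESeq2 1.42.0 size factors, scaling on 15 pan-neuronal or 11 excitatory genes, a separation of 2-fold, other minima and pseudocounts, and leaving out each library. Family shares by principal transcript length were added after seeing the data. Calculations were tested on simulated data.

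The 9 genes and all lists were chosen with earlier results of these data known. Named were the 9 genes, other genes of the CaMKII and calcineurin A families, the 2 most abundant and the 2 most variable genes of each list, and genes of similar course, 5 for Camk2a and for Nrgn and 1 for each other gene. Camkk1, Camkk2, Rcan1, Rcan3 and the genes lowest or highest in M were named after their values were seen. A gene of the planned lists, and the family shares that need it, are not reported here. Calculations used Python 3.11.15 with numpy 2.4.6 and pandas 2.3.3, and plots matplotlib 3.10.9.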

Additional observations from a re-analysis of the deposited data

How the results depend on the processing

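Depth was not limiting, since each of the 9 genes had at least 400 counts in every library, and the limit is the number of libraries, 3 per letter, with no label of dose. No paired analysis was possible because the labels give no replicate numbers. Of 324 alternatives for the differences between letters, 317 kept the value within the spread, 5 moved it and 2 reversed it. Values kept within the spread could still shift widely. With pan-neuronal scaling H minus L went from 0.089 to 0.641 for Ppp3ca and from 0.265 to 0.824 for Camk2d. Both reversals came where letters had been apart, under pan-neuronal scaling: the H minus L difference became 0.19 for Camk4 and 0.25 for Calm3. The sign changed in 18 of the 324, 6 with pan-neuronal scaling, 1 with excitatory scaling and 11 with a library left out, the other 16 in pairs of overlapping letters. With pan-neuronal scaling these were Camk2g for H minus L (0.18) and M minus L (0.24), and Calm2 (0.29) and Calm3 (0.46) for H minus M. The count of genes apart between H and L, 4 in the main scaling, was 3 with library totals, 2 with excitatory scaling and 0 at 2-fold. Of all genes at 1 CPM, 50.9% were apart in the main scaling, 50.2% with library totals and 47.0% with excitatory scaling. With pan-neuronal scaling the count was 3, but of other genes (Camk2a, Camk2b and Ppp3ca), all higher in H, and 56.3% of all genes were apart. With single libraries left out the count was 4 to 7, and the share of all genes apart rose to between 54.1% and 62.0%. The 7 came without S1007, the omission with the largest share (62.0%). Camk2a and Ppp3ca were then also higher and Camk2g lower in H. With library totals H and M were also apart for 7, but with Calm2 in place of Ppp3ca. Between M and L the count of 5 became 3 with excitatory scaling and 1 (Nrgn) at 2-fold, and between H and M the count of 7 became 1 (Nrgn) at 2-fold. With single libraries left out these counts were 5 to 7 and 7 to 8. The shares of all genes apart then also rose, to 40.3% to 45.3% and 48.1% to 58.9%. With no minimum level, 28.1% of genes were apart between H and L (main 50.9%), 17.4% between M and L (32.5%) and 23.4% between H and M (44.2%), as many genes with few counts enter. From counts not divided by length, the median share was 53.7% for Camk2b (main range 44.75% to 50.64%), 2.69% for Camk2d (main median 0.949%), 93.4% for Ppp3ca (87.7%) and 0.716% for Ppp3cc (3.44%). By principal transcript length it was 57.3% for Camk2b, 2.13% for Camk2d, 95.7% for Ppp3ca, 3.31% for Ppp3cb (8.79%) and 0.814% for Ppp3cc. For Camk2g (15.6%) these medians were 7.34% and 8.49%, within its spread between libraries. With a minimum of 1 CPM, 1 of the 5 genes most like Camk2a was kept.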
